A study of Mus musculus with 4 samples.

Results

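The genes described here encode the proteins of the cytosolic ribosome. They were chosen by gene symbol, Rpl or Rps with a number, Rplp0 to Rplp2 or Rpsa, from probe sets that the array annotation assigns to exactly 1 gene, and each gene is represented by its brightest probe set. The rule found 49 of the 18194 genes on the array, 26 of the large subunit and 23 of the small one, and 45 were bright enough to be tested. RNA came from C2C12 cells, a mouse myoblast line, on 4 Affymetrix arrays, 1 per independently grown culture. All were stably transduced with pLKO.1, a lentiviral hairpin vector, and kept as myoblasts in growth medium with serum and puromycin. In 2 cultures the vector carried a control hairpin, called a scramble shRNA in one label and shLuc in another. In the other two it carried shSFMBT1, a hairpin against Sfmbt1. The labels do not say if replicate cultures were transduced separately, so the p-values measure the spread between cultures, which may be technical. The comparison asks which genes differ when Sfmbt1, a chromatin protein with MBT repeats, is knocked down.

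A ribosome joins a large subunit, which forms peptide bonds, to a small subunit, which reads the messenger RNA. Nearly every ribosomal protein is present once per ribosome, and cells make these proteins in matched amounts. Their messenger RNAs are among the most abundant of a dividing cell. Most begin with a C followed by an uninterrupted run of pyrimidines, the 5' terminal oligopyrimidine (TOP) tract, through which mTORC1 signalling controls how actively they are translated. Growing myoblasts make many ribosomes, and ribosome production declines as they stop dividing and form muscle fibres.

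The start regions of the genes at the ends of the order of differences are shown because the TOP tract lies there. RefSeq (GRCm38.p6) gave start regions for 43 of the 49 genes. Each line has 15 bases before the annotated start and 15 from it on, 5′ to 3′ on the gene's strand, with the longest run of at least 5 pyrimidines in capitals.
Rpl41 (chr10:128549154-128549183, minus strand): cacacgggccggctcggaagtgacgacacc
Rpl39 (chrX:37085208-37085237, minus strand): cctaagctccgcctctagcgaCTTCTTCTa
Rpl7l1 (chr17:46782642-46782671, minus strand): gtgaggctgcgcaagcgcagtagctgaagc
Rpl27a (chr7:109519180-109519209, plus strand): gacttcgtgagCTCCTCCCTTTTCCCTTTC
Rps25 (chr9:44407699-44407728, plus strand): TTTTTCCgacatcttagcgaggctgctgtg
Rps27 (chr3:90213634-90213663, minus strand): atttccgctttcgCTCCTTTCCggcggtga
Rps6 (chr4:86857353-86857382, minus strand): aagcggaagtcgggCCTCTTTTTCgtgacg
Rpl11 (chr4:136053379-136053408, minus strand): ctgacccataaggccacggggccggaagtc
Rpl37 (chr15:5116598-5116627, plus strand): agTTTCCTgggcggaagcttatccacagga
Rpl27 (chr11:101442230-101442259, plus strand): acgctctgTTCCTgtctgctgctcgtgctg
The first 5 genes had the lowest fitted differences between knockdown and control and the last 5 the highest. A TOP-like start, as defined in the next sentence, appears at both ends of the order, in Rpl39 and Rpl27a at the low end and in Rps27 and Rps6 at the high end. A C followed by at least 4 pyrimidines, beginning within 5 bases of the start on the gene's strand, was present in 21 of the 51 windows of these genes (41.2%) and in 18.3% of all 32851 windows. In Rpl39 the run that meets this rule is not the one in capitals, which begins 6 bases past the start. It is a shorter, unmarked run that begins just before the start. Annotated starts can lie several bases from the true one, so a missing run says only that these letters are not in this window. In the full windows of 300 bases, searched on both strands, CCGGAAG, a core of ETS factor sites, was found in 41.2% of the windows of these genes against 8.9% of all. AAGATGGC, a motif of the YY1 type, was found in 4 of the 51 windows (7.8%) against 2.7%, and CACGTG, the E-box bound by MYC, in 5 (9.8%) against 7.2%. Among the genes shown, the full windows held AAGATGGC in Rpl7l1 at the low end and Rps27 at the high end. In the fruit fly the relative of Sfmbt1 works with the relative of YY1. A link between Sfmbt1 and this motif was not tested here. Of the genes with both a window and a test, the 20 with a TOP-like start had a median log2 difference of 0.13 and the 20 without one 0.094. For CCGGAAG both medians were 0.10, in 20 genes with the motif and 20 without it. For AAGATGGC the medians were 0.16 in 4 genes with the motif and 0.095 in 36 without it. For CACGTG they were 0.15 in 4 genes and 0.0915 in 36.

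The arrays were similar in median signal but less so in background. Their median signals lay between 92.8 and 102.7, and background, set by 27 bacterial control probe sets, between 42.9 and 69.3. Knockdown replicate 1 had the highest background and the smallest share of probe sets above it, 56.2% against 64.3% to 67.6% on the others. Sfmbt1 had a lower signal on both knockdown arrays than on both control arrays in each of its 5 probe sets, of which 1443853 was in the background range on all 4 arrays and so gives no evidence, from 260.9 to 114.1 in probe set 1422893, for example. Its brightest probe set had 256 and 362 in control cultures, 166 and 252 in knockdown cultures, and did not pass limma's test (adjusted p = 0.316). All 6 myoblast markers were tested and none passed limma's test, with 1 at an unadjusted p under 0.05 (Myod1), and their summed signal was 17980 to 20230. Myod1, Des and Cdh15 stood between 2481.5 and 5216 on every array. The haematopoietic marker Ptprc, listed with the macrophage markers, the endothelial marker Pecam1 and the adipocyte markers Adipoq and Cd36 were in the background range on all 4 arrays. The other macrophage markers, Csf1r, Adgre1 and Cd68, and the endothelial marker Kdr were above that range on all 4 arrays. The summed signal of the 4 macrophage markers was 664.4 and 755.1 in control and 534.8 and 736.9 in knockdown cultures. That of the 3 endothelial markers was 298.6 to 375.3, with Kdr the highest, and that of the adipocyte markers 72.2 or less. Of 5 markers of differentiated muscle 4 rose (Myog, Actc1, Myh3 and Tnnt1), and the summed signal of the 5 went from 881.3 and 1110 in the control to 4053 and 4589 in the knockdown. Their part in the results below was not tested. In cultures, a change in the mix of cells and a change in RNA per cell cannot be told apart.

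The ribosomal protein genes were close to the top of the signal range, and their levels moved little. The median signal of the 45 tested genes was 20435 and 21870 in control cultures against 21978 and 24643 in knockdown cultures. Knockdown replicate 2 had the highest signal for 37 of the 45 genes, and control replicate 1 the lowest for 34, against 39.4% and 35.1% of all tested genes. The median log2 difference, on the log2(signal + 16) scale and knockdown minus control, was 0.12, or 8.53% above the control, against 0.015 over all 12866 tested genes. The quartiles were 0.079 and 0.17 for these genes and -0.19 and 0.19 for all genes, so the ribosomal protein genes lay in a narrow band. They were also far brighter, with a median mean log2 signal of 14.4 against 8.74 for all genes. The part of brightness in the narrow band was not tested. A positive difference was seen in 37 of the 45 (82.2%), against 52.2% of all tested genes. Between arrays of 1 group, replicate 2 minus replicate 1, it was seen in 39 of 45 in control and 41 of 45 in knockdown cultures. The medians of all genes in these 2 pairs were 0.098 and 0.13. After quantile normalization 31 of the 45 differences between groups were positive, against 6965 of all 12866 genes. Both knockdown arrays lay above both control arrays for 23 of the 45 genes, against a background of 23.0%, and below for 6, against 21.5%. With limma's moderated test and an adjusted p under 0.05 none was higher, against 1.44% of all genes, and 1 was lower, against 1.61%. At an unadjusted p under 0.05 they numbered 2 higher and 4 lower, against 7.89% and 7.14% of all genes. This count of 6 depended on the scaling: it was 27 of 45 with each array centred on its median, where all genes gave 2603, and 10 of 45 after quantile normalization, where all genes gave 2532.

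**Figure D1:**
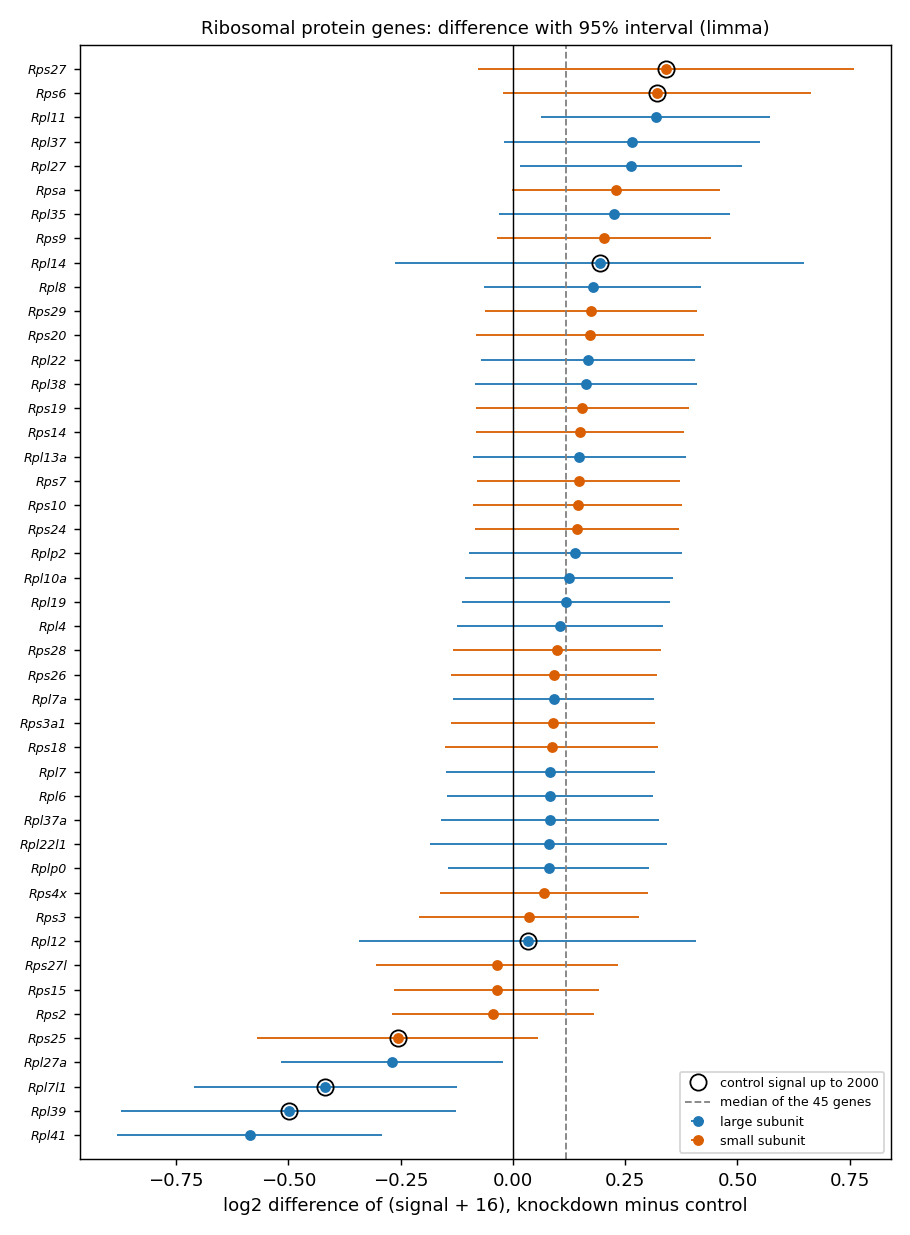
Log2 difference of (signal + 16), knockdown minus control, for the 45 tested ribosomal protein genes (rows, ordered by difference), with the 95% interval of limma's fit from 2 arrays per group. Blue points are large subunit genes, orange points small subunit genes, black rings mark the 7 genes with a control signal up to 2000, and the dashed line is the median of 0.12. Rpl41, at the bottom, is the gene that passed the test, and most genes lie between 0 and 0.27.

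This small upward offset was of similar size to the differences between arrays of 1 group. The median difference over the 45 genes was 0.11 between the control arrays and 0.16 between the knockdown arrays, replicate 2 minus replicate 1. Between groups it was 0.0037 for knockdown replicate 1 against control replicate 2, and 0.24 for knockdown replicate 2 against control replicate 1. Part of this is shared by all genes. Relative to the median of all tested genes on the same array, the ribosomal protein median stood at 5.62 log2 units in both control cultures and at 5.74 and 5.78 in the knockdown cultures. Here the groups did not overlap. The ribosomal protein median difference minus that of all genes was 0.098 to 0.11 in the 4 pairs of arrays between groups, against 0.0079 between the control arrays and 0.036 between the knockdown arrays. The genes made up 5.996% and 5.955% of the summed signal of tested genes in control cultures and 6.29% and 6.24% in knockdown cultures. The offset depended on the scaling: after quantile normalization, which gives every array the same distribution at each brightness, the median was 0.034 against 0.029 for all genes. It was 0.066 without control replicate 1, 0.048 without knockdown replicate 2 and 0.18 without knockdown replicate 1.

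**Figure D2:**
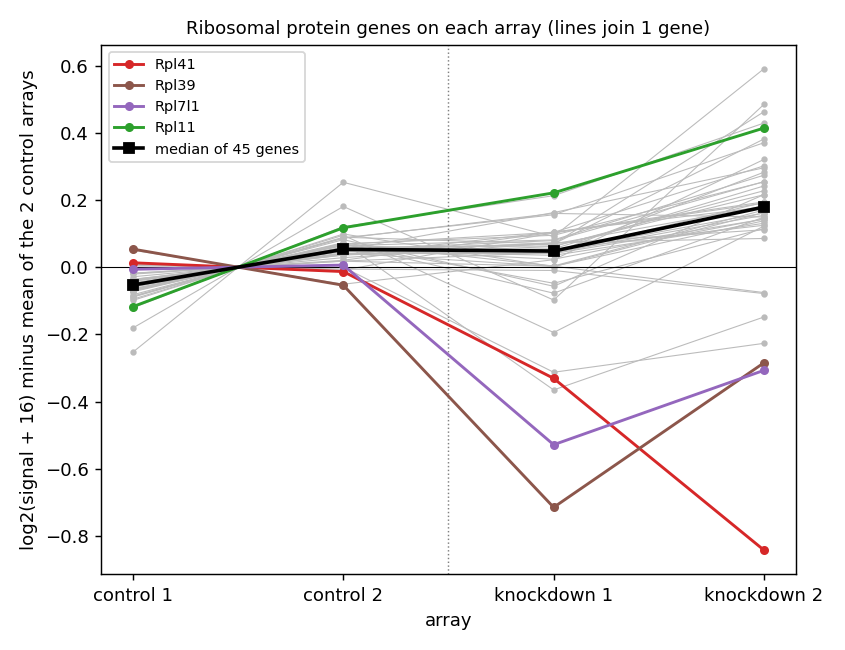
Log2(signal + 16) on each of the 4 arrays minus the mean of the control arrays, 1 line per tested ribosomal protein gene and black squares for their median. The lines only join the values of 1 gene. The median is highest on knockdown replicate 2, while Rpl41 (red) is lowest there and Rpl39 (brown) and Rpl7l1 (purple) are lowest on knockdown replicate 1.

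**Figure D3:**
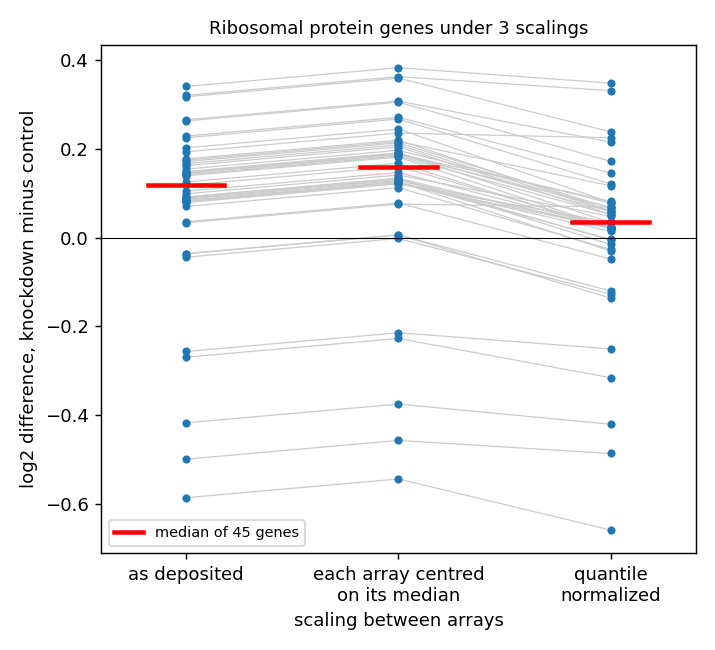
Log2 difference, knockdown minus control, of the 45 tested genes under 3 ways of scaling the arrays, with grey lines joining 1 gene and red bars at the median. The median is 0.12 as deposited, 0.16 with each array centred on its median and 0.034 after quantile normalization, while the 5 lowest genes stay apart from the rest under each.

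For no tested ribosomal protein gene did the 95% interval of the probe set used reach a 2-fold change. Dimmer probe sets had differences beyond it, 1.01 in Rps10 (1439374) and -1.515 in Rps18 (1421837, with 1 array in the background range). The highest signal of a ribosomal protein gene was 81.6% of the array maximum. How closely signals that high follow the amount of RNA was not tested, so narrow intervals of bright genes describe signal. Among the 38 genes with a control signal above 2000, where the lowest was 4623, the median standard error was 0.11 log2 units. The intervals of the 37 of them that were not called lay between -0.52 and 0.57. The other 7 tested genes, Rpl12, Rpl14, Rpl39, Rpl7l1, Rps6, Rps25 and Rps27, had control signals of 361 to 1637. For 6 of these the annotation also has probe sets that it shares between the gene and others, so the probe set used may not be the one that reports most of the messenger RNA. These dim genes were found at both ends of the order of differences.

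Rpl41 encodes the shortest protein of the ribosome, a basic peptide at the boundary between the subunits, and the probe set used for it fell in the knockdown. Its signal was 30872 and 30317 in control cultures against 24323 and 17062 in knockdown cultures. The groups did not overlap, and the knockdown arrays differed from each other far more than the control arrays did. The mean went from 30595 ± 392 to 20692 ± 5134 (SD, n = 2 each), 67.6% of the control, with a log2 difference of -0.59 (SE 0.14, limma adjusted p = 0.0316). Relative to the median of the ribosomal protein genes on the same array, Rpl41 stood at 0.59 and 0.47 log2 units in control cultures and at 0.15 and -0.53 in knockdown cultures. The probe set used, 1455578, has an _x_at identifier, which marks possible hybridisation to other transcripts. The other probe sets of the gene did not all show this fall. Probe set 1422623, also bright, had 15674 and 13915 in control cultures against 14500 and 14523 in knockdown cultures, a log2 difference of -0.025. Probe sets 1454639 and 1433530, both under 250, differed by -0.41 and -0.0040. Probe set 1433530, unlike the others, has no _s_at or _x_at identifier. The call rested on knockdown replicate 2: without it the difference was -0.33 (adjusted p = 0.231). It also ended with median centring (-0.54, adjusted p = 0.106) and quantile normalization (-0.66, adjusted p = 0.0703).

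Paralogues are second copies of a ribosomal protein gene, often used in particular tissues, and 6 of them were among the 49 genes. Rpl7l1, a relative of Rpl7 with a role in assembling the large subunit, had 1630 and 1644 in control cultures against 1130 and 1320 in knockdown cultures. Both knockdown arrays were lower, and the control arrays hardly differed. The log2 difference was -0.42 (SE 0.14, adjusted p = 0.138), and it passed without knockdown replicate 2 (-0.53, adjusted p = 0.0377) and with quantile normalization (-0.42, adjusted p = 0.0432). Its other probe sets gave -0.57 and -0.12, so all 3 were negative. Rpl7 itself had 20832 and 22434 in control cultures against 21978 and 23880 in knockdown cultures (log2 0.084, adjusted p = 0.797), overlapping between the groups.

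Rps27l, a relative of Rps27 and a p53 target, had 9927 and 11329 in control cultures against 9266 and 11545 in knockdown cultures. The knockdown arrays enclosed the control arrays, and the difference of -0.036 (95% interval -0.31 to 0.23) turned positive with median centring (0.0062), without control replicate 2 (0.059) and without knockdown replicate 1 (0.12). Rpl22l1, a relative of Rpl22, had 7067 and 7918 in control cultures against 7191 and 8690 in knockdown cultures (log2 0.080, adjusted p = 0.835). Rpl22 itself had 19298 and 20755 in control cultures against 21142 and 23876 in knockdown cultures (log2 0.17, adjusted p = 0.537). The remaining paralogues were in the background range on all 4 arrays and were not tested. Rpl3l, the form of Rpl3 found in heart and skeletal muscle, was at 13.4 or less on every array. Rps4l was at 6 or less and Rpl39l, best known from testis, at 48.1 or less. The fourth untested gene was Rps16, whose single-gene probe set stayed at 6.3 or less although the annotation lists 2 further probe sets for it together with other genes.

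The large subunit was represented by 24 tested genes, of which 20 had a positive difference, 12 had non-overlapping higher groups and 4 non-overlapping lower groups, against 52.2%, 23.0% and 21.5% of all genes, with a median of 0.11. After quantile normalization 18 of the 24 were positive, against 6965 of all 12866 genes. The stalk, a flexible arm that recruits elongation factors, is built of Rplp0, Rplp1 and Rplp2 on a base with Rpl12. Rplp0 had the highest control mean among the tested members, with 32821 and 34706 in control cultures against 35508 and 35811 in knockdown cultures (log2 difference 0.079, SE 0.11, adjusted p = 0.799). Rplp2 had 18113 and 19671 in control cultures against 19721 and 21920 in knockdown cultures (log2 0.14, adjusted p = 0.624). In both genes the knockdown arrays were above the control arrays, by less than the interval of the fit. Rpl12, seen only through a dim probe set, gave 0.033.

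Rpl11 forms with Rpl5 and 5S RNA the particle that, outside the ribosome, binds the p53 regulator MDM2. It had 10465 and 12316 in control cultures against 13236 and 15131 in knockdown cultures. The groups did not overlap, and control replicate 1 was the lowest. The log2 difference of 0.32 (SE 0.12, adjusted p = 0.209) was the highest of the bright genes, and it was 0.36 with median centring (adjusted p = 0.0423), 0.24 with quantile normalization (0.0769) and 0.20 without control replicate 1 (0.787). Rpl27, another gene of the large subunit, had 19371 and 21870 in control cultures against 22933 and 26610 in knockdown cultures (log2 difference 0.26, SE 0.12, adjusted p = 0.296). Rpl37 overlapped between the groups, with 7107 and 8044 against 7933 and 10425 (log2 0.27, adjusted p = 0.374), and the difference was 0.46 without knockdown replicate 1 (adjusted p = 0.0372) but 0.069 without knockdown replicate 2 (0.916).

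Of 8 genes listed for the exit tunnel, through which the new peptide leaves, 4 were tested. Rpl4, Rpl19 and Rpl35 had non-overlapping higher groups, against 23 of all 45 tested ribosomal protein genes and 23.0% of all genes. Their differences were 0.10, 0.12 and 0.23, with limma adjusted p of 0.729, 0.685 and 0.414. Rpl39, a small protein lining the tunnel, went the other way. Its signal was 726 and 673 in control cultures against 420 and 571 in knockdown cultures (log2 difference -0.50, SE 0.18, adjusted p = 0.169). Both knockdown arrays were lower, knockdown replicate 1 the most, and the difference was -0.71 without knockdown replicate 2 (adjusted p = 0.0123) but -0.28 without knockdown replicate 1 (0.503). Rpl27a had 4624 and 4622 in control cultures against 3719 and 3949 in knockdown cultures, a log2 difference of -0.27 (SE 0.12, adjusted p = 0.282). The control arrays were almost equal, and both knockdown arrays lay below them.

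The small subunit was represented by 21 tested genes. Of these 17 had a positive difference, 11 had non-overlapping higher groups and 2 non-overlapping lower groups, against 52.2%, 23.0% and 21.5% of all genes, with a median of 0.14 and no call at an adjusted or unadjusted threshold. After quantile normalization 13 of the 21 were positive, against 6965 of all 12866 genes. Rpsa, which is also known as a laminin receptor, had 25171 and 27048 in control cultures against 29204 and 32030 in knockdown cultures (log2 difference 0.23, SE 0.11, adjusted p = 0.340). The groups did not overlap, and the difference passed with median centring (0.27, adjusted p = 0.0433) but not with quantile normalization (0.15, adjusted p = 0.178). Rps6, the protein phosphorylated by the S6 kinases downstream of mTORC1, had 573 and 680 in control cultures against 726 and 846 in knockdown cultures, again without overlap (log2 difference 0.32, SE 0.16, adjusted p = 0.373). This probe set was dim for a ribosomal protein gene, and the annotation lists 9 more for Rps6 together with other genes.

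Rps27 had the highest difference of all, 0.34 (SE 0.20, adjusted p = 0.458), with 515 and 738 in control cultures against 658 and 937 in knockdown cultures. The groups overlapped. The difference was 0.59 without knockdown replicate 1 (adjusted p = 0.0443), but 0.088 without control replicate 1 (0.966) and 0.091 without knockdown replicate 2 (0.917). Rps9, near the messenger RNA entry site, had 15708 and 16166 in control cultures against 17124 and 19644 in knockdown cultures (log2 0.20, adjusted p = 0.432). Rps25, a protein used by some viral and cellular internal ribosome entry sites, had 1067 and 1182 in control cultures against 868 and 1012 in knockdown cultures (log2 difference -0.26, SE 0.15, adjusted p = 0.453). Its groups did not overlap either. Rps2 and Rps15 had differences of -0.044 and -0.036, with 95% intervals of -0.27 to 0.18 and -0.26 to 0.19. In Rps15 a second probe set gave 0.19, and the difference was 0.0059 with median centring.

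Mutations in some ribosomal protein genes cause Diamond-Blackfan anaemia in people. Of 9 such genes that were listed, 6 were tested here: Rps7, Rps10, Rps19, Rps24, Rps26 and Rpl11. All 6 had non-overlapping higher groups, against 23 of all 45 tested ribosomal protein genes and 23.0% of all genes, with differences from 0.092 in Rps26 to 0.32 in Rpl11, and none passed the test. The count covers only the listed genes and was not taken over every gene linked to the disease. Rps19, the gene most often mutated, had 12496 and 14080 in control cultures against 14821 and 14713 in knockdown cultures (log2 0.15, adjusted p = 0.576). After quantile normalization 5 of the 6 differences were positive, with a median of 0.073.

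Several genes were seen through more than 1 probe set, which shows how far a value rests on the choice of probes. Of 105 probe sets for the 49 genes 94 passed the filter. A positive difference was seen in 76 of these 94, against 52.2% of all tested genes, and the median was 0.14. Of the 20 genes with several, 14 had the same sign in all of them, and the median range within a gene was 0.19 log2 units. Of the 45 probe sets used, 16 have identifiers that mark possible hybridisation to other transcripts (_s_at or _x_at). When every probe set was tested on its own, 2 of these 94 passed as higher, against 0.961% of all 22893 probe sets tested, and 0 as lower, against 1.43%. Both were dimmer than the probe set used for their gene. They were chosen after their values were seen. Rps10 probe set 1439374 had 2265 and 3441 in control cultures against 4480 and 7144 in knockdown cultures (log2 1.01, adjusted p = 0.0362), while 4 brighter ones gave 0.14 to 0.20. Rpl22 probe set 1448398 had 689 and 703 in control cultures against 1047 and 1129 in knockdown cultures (log2 0.63, adjusted p = 0.0407), while the others gave 0.16 and 0.17.

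**Figure D4:**
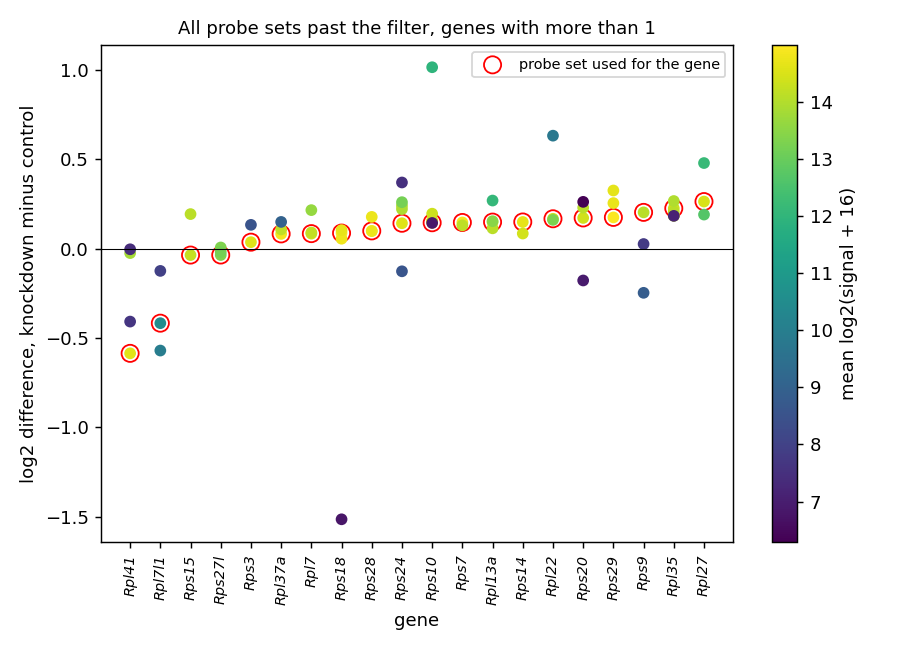
Log2 difference, knockdown minus control, of every probe set past the filter for the 20 ribosomal protein genes that have more than 1, coloured by mean log2(signal + 16), with a red ring on the probe set used for the gene. The 2 bright probe sets of Rpl41 lie at -0.59 and -0.025, and the values farthest from 0, 1.01 in Rps10 and -1.51 in Rps18, belong to probe sets dimmer than the one used.

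The rule leaves out 110 probe sets that name a ribosomal protein gene together with other genes. They list 44 such genes, 29 of them not among the 49, and 104 passed the filter. These 104 had a median log2 difference of 0.13. Of them 93 were positive, 46 had non-overlapping higher groups and 3 non-overlapping lower groups, against 52.2%, 23.0% and 21.5% of all tested genes. Their range was -0.59 to 0.62, against -0.59 to 0.34 for the 45 tested genes. No gene is named from them.

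Other genes of ribosome production and translation were followed through lists. Fau, which encodes a ribosomal protein fused to a ubiquitin-like one, differed by 0.060 (adjusted p = 0.864). Of 92 tested genes of ribosome biogenesis, the making of ribosomal RNA and the joining of proteins to it, 1 rose and 0 fell, against 1.44% and 1.61% of all genes, with a median of 0.11 and 18 higher and 2 lower at an unadjusted p under 0.05, against 7.89% and 7.14% of all genes. It was Spata5, an AAA ATPase gene of late large subunit assembly, with 357 and 420 in control cultures against 709 and 658 in knockdown cultures (log2 difference 0.79, SE 0.17, adjusted p = 0.0169). The call was lost without control replicate 1 (adjusted p = 0.0970). Spata5 also did not pass with no filter on dim probe sets (limma adjusted p = 0.109) or without the variance trend (0.254). The list median was 0.11 after quantile normalization too, unlike that of the ribosomal protein genes.

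Among 38 tested genes of RNA polymerases I and III 1 rose and 0 fell, against 1.44% and 1.61% of all genes, with a median of 0.073. At an unadjusted p under 0.05 there were 8 higher and 1 lower, against 7.89% and 7.14%. Polr1d, a subunit shared by both polymerases, had 2268 and 2746 in control cultures against 3387 and 4261 in knockdown cultures (log2 difference 0.60, SE 0.14, adjusted p = 0.0299). The call was lost without control replicate 1 (0.47, adjusted p = 0.209) and without knockdown replicate 2 (0.44, adjusted p = 0.0818). None of 38 initiation factor genes passed limma's test, and the median was 0.092. Of the 38 genes 7 had an unadjusted p under 0.05, 5 higher and 2 lower, against 7.89% and 7.14% of all genes. Of 17 elongation and release factor genes 1 rose and 0 fell, against 1.44% and 1.61% of all genes. It was Eef1e1, for a scaffold protein of the tRNA synthetase complex, with 1399 and 1251 in control cultures against 1894 and 2318 in knockdown cultures (log2 difference 0.66, SE 0.14, adjusted p = 0.0185). The call was lost without control replicate 2 (adjusted p = 0.0872).

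Other TOP messenger RNAs held 17 tested genes, and none passed limma's test. At an unadjusted p under 0.05 there were 4 higher and 1 lower, against 7.89% and 7.14% of all genes. Of the 17 genes 14 had a positive difference, against 52.2% of all genes, and the median was 0.076. After quantile normalization 8 were positive and the median was -0.012. The elongation factor genes Eef1a1 and Eef2 differed by -0.015 and 0.076, and the translationally controlled tumour protein gene Tpt1 by 0.011. Npm1, which encodes nucleophosmin, differed by 0.31 (adjusted p = 0.259) and Nap1l1, a histone chaperone gene, by -0.31 (adjusted p = 0.169). In the list of mTORC1, the S6 kinases and TOP-binding proteins 1 of 26 rose and 1 fell, against 1.44% and 1.61% of all genes. Of the 26 genes 13 were positive, against 52.2% of all genes. Larp4, which binds poly(A) tails and stabilises messenger RNAs, had 1038 and 1061 in control cultures against 590 and 626 in knockdown cultures (log2 difference -0.77, SE 0.15, adjusted p = 0.0091). Its call was lost with no filter (limma adjusted p = 0.0653) and without the variance trend (0.239). Deptor, an mTOR inhibitor, had 992 and 1190 in control cultures against 1595 and 1599 in knockdown cultures (log2 difference 0.55, SE 0.14, adjusted p = 0.0458), a call that was lost without control replicate 1 (0.42, adjusted p = 0.394). Mtor itself and Larp1, the main TOP-binding repressor, differed by 0.063 and 0.051. Of 17 genes for chaperones and quality control at the ribosome none passed limma's test. An unadjusted p under 0.05 was seen in 3, 2 higher and 1 lower, against 7.89% and 7.14% of all genes.

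Mitochondria have ribosomes of their own, with another set of proteins. Of 76 tested mitochondrial ribosomal protein genes 0 rose and 2 fell, against 1.44% and 1.61% of all genes. A positive difference was seen in 52 of the 76, against 52.2% of all genes, and the median was 0.038. At an unadjusted p under 0.05 the list had 9 higher and 2 lower, against 7.89% and 7.14%. Mrpl28 had 2199 and 2208 in control cultures against 1120 and 1431 in knockdown cultures (log2 difference -0.79, SE 0.14, adjusted p = 0.0059). The Mrpl28 call was lost with no filter (limma adjusted p = 0.0798) and without the variance trend (0.279). Mrpl10 had 1714 and 1866 in control cultures against 1122 and 1313 in knockdown cultures (log2 difference -0.55, SE 0.14, adjusted p = 0.0409). Its call was lost on leaving out control replicate 1 (adjusted p = 0.0782), control replicate 2 (0.217) or knockdown replicate 1 (0.105). The difference between the cytosolic and mitochondrial sets was not tested.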

How the data were processed

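Each deposited table gives 1 linear intensity (signal) per probe set, and the submitters' processing notes name MAS5 and GCOS, with no version. A scaling step between arrays was not given in the sources used here. Of 45101 probe sets, 34945 name 1 gene in the array annotation, 932 several and 9160 none, and 64 are controls. Each gene took the probe set with the highest mean log2(signal + 16), and the upper 60% of mean log2 signal was kept (signal 57.3 or more), which left 12866 genes. A fold change on this scale understates that of dim genes. Differences were tested two-sided with limma 3.58.1 (lmFit, eBayes with a variance trend) in R 4.3.3, with Benjamini-Hochberg adjustment over all tested genes and a threshold of 0.05. The residual degrees of freedom were 2 and the prior added 13.8. An exact permutation test of 2 against 2 cannot give a p under 0.333. Precision is limited by the number of arrays. Background was set at the 95th percentile of the 27 bacterial controls. Steps were tested on simulated data. Named are all called members, the 8 highest and 8 lowest differences, members with a listed role, called genes of the other lists (up to 3 each) and Sfmbt1. Other uncalled genes with values, such as Rpl7, Rpl22, Npm1, Nap1l1, Eef1a1, Eef2, Tpt1, Mtor, Larp1 and Fau, were added after their values were seen. The members and lists were chosen with earlier results of these data known. Alternatives changed the pseudocount (1 or 64), filter, scaling, variance trend, replicate block, probe sets and arrays used.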

Additional observations from a re-analysis of the deposited data

How the results depend on the processing

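The 392 called genes became 55 with no filter on dim probe sets, 607 with the upper 40% kept and 0 without the variance trend, where limma gave 1501 at an unadjusted p under 0.05. Leaving out 1 array gave 311 to 671, with 671 (407 higher) without knockdown replicate 1 and 617 (167 higher) without knockdown replicate 2. Median centring moved the share of higher calls from 47.2% to 60.9%. The 1 called ribosomal protein gene became 0 with no filter, 0 without the trend (2 at an unadjusted p under 0.05), 0 without _s_at and _x_at probe sets, 2 with median centring, 2 with every probe set and 1 to 3 without 1 array. Rpl41 did not pass with no filter (adjusted p = 0.323), without the trend (0.409) or with every probe set (0.0705). Without _s_at and _x_at probe sets, another of its probe sets was used (-0.0040). The called genes of the ribosome and translation lists also failed to pass with no filter and without the trend. These were Spata5, Polr1d, Eef1e1, Larp4, Deptor, Mrpl28 and Mrpl10. The median log2 difference of 0.12 lay between 0.034 and 0.18 in every alternative run, and moved by less than 0.0959, the SD of the array medians within groups. That SD includes shifts shared by all genes of an array, so it is a wide yardstick. The lowest value, 0.034 after quantile normalization, stood beside 0.029 for all genes. Of 222 single-gene values, 200 kept their direction and side of the threshold and 5 changed sign. These were Rps27l with median centring (0.0062) and without control replicate 2 or knockdown replicate 1 (leaving out 1 array gave -0.19 to 0.12), and Rps15 with median centring (0.0059) and without knockdown replicate 2 (-0.076 to 0.0029). The cause was not tested. The labels tie same-numbered arrays by nothing but the number. Their deviations from the group means correlated at 0.01 across all genes and at 0.48 across the ribosomal protein genes. The replicate block gave 546 called genes of 12866 and 4 ribosomal protein genes of 45, Rpl11, Rpl27 and Rpsa higher and Rpl41 lower. At an unadjusted p under 0.05 it gave 25 of the 45 in place of 6, where all genes gave 2572 in place of 1933. Dim probe sets limit Rpl12, Rpl14, Rpl39, Rps6, Rps25 and Rps27.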
